A study of Mus musculus with 24 samples.

Results

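The genes described here encode the machinery that stores neurotransmitter in synaptic vesicles and releases it. They were chosen by name, as 32 genes matched by Ensembl identifier in the table of mRNA read counts, out of 38293 genes in that table. All 32 passed the filter on low counts (reads above 5 in 80% or more of any one group's libraries), together with 18593 genes in all. Messenger RNA was sequenced from punches of the nucleus accumbens (NAc), the part of the ventral striatum that handles reward and motivation, of wild-type C57BL/6J mice aged 9 weeks by the labels. The groups were nonstressed males (NSM), males after Subchronic Variable Stress (SM), nonstressed females (NSF) and stressed females (SF), with 3 libraries in each and 12 in all. The stress alternated foot shock, tail suspension and restraint over consecutive days, and the controls stayed in their home cages. For a library 10 punches of 5 mice were pooled, and only females in estrus or proestrus were taken. The pools held different mice, so that p-values measure the spread between pools and not between single animals.

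A synaptic vesicle is loaded with transmitter, docked at the active zone of the presynaptic membrane, primed, and fused when calcium enters. Fusion is driven by the SNARE proteins, of which VAMP sits on the vesicle and syntaxin and SNAP-25 on the plasma membrane. Synaptotagmins sense the calcium, complexins clamp and promote the SNARE complex, Munc13 and RIM proteins prime and position the vesicle, Rab3 proteins bring it to the release site, and NSF takes the used SNARE complexes apart. Most neurons of the NAc are GABAergic projection neurons, and the mRNA of a punch comes mainly from cell bodies in it, neurons and glia, rather than from the axons that arrive from cortex, thalamus or midbrain. In tissue RNA of this kind, fewer cells of a type and less RNA per cell cannot be told apart.

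Counts per library added up to between 41076780 and 60867747 reads. The genes Xist and Ddx3y, which mark female and male tissue, were at levels that fitted the sex label of every library, and Drd1a and Ppp1r1b, markers of striatal projection neurons, were high in all 12 (at least 272 and 761 CPM, read counts scaled to one common library size). Libraries differed in a list of 12 genes of cortical glutamatergic neurons. Summed over that list, NSM libraries held 103 to 116 CPM, SM libraries 154, 257 and 315 CPM, NSF libraries 371, 119 and 495 CPM, and SF libraries 157, 144 and 225 CPM. Its defining marker Slc17a7, the vesicular glutamate transporter of cortical neurons, was at 12.0, 4.02 and 16.4 CPM in NSM, at 39.5, 119 and 162 CPM in SM, at 209, 16.4 and 297 CPM in NSF and at 37.0, 34.5 and 93.2 CPM in SF. In males the 5 blood genes also rose together (5 of 5 met the thresholds given below, with sums of 21.8 to 27.4 CPM in NSM and 38.5 to 47.2 CPM in SM), and the 6 oligodendrocyte genes summed to 4601 to 5145 CPM in NSM and 5528 to 5559 CPM in SM. The cortical values are set beside the results below, and their part in the differences between groups was not tested. All SM libraries lay above all NSM libraries for the cortical list, so that stress and cortical level cannot be told apart in males. A fit with the cortical marker level in the model uses the slope on it within groups, and does not separate stress from it.

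Promoters of the 4 genes that met the thresholds in at least one comparison are shown first, since these genes carry the differences described below. They are RefSeq sequences on GRCm38.p6, 300 bases around the most upstream listed start, read along the strand of the gene. Capitals mark the GC box GGGCGG, which transcription factors of the Sp1 family bind, and the TATA box TATAAA, each searched on both strands.
Syt2 (chr1:134646362-134646661, + strand): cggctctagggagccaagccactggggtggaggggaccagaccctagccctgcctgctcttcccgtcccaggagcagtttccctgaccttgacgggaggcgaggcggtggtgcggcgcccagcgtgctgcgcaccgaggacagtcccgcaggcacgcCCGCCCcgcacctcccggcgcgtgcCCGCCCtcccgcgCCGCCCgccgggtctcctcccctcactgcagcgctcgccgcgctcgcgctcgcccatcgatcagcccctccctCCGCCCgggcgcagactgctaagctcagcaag
Sv2b (chr7:75309213-75309512, - strand): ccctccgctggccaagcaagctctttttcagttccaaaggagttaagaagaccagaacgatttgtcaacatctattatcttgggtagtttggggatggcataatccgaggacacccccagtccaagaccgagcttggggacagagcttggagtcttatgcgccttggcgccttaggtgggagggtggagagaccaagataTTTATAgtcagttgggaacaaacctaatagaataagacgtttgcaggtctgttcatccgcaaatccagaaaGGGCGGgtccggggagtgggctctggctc
Rph3a (chr5:121010043-121010342, - strand): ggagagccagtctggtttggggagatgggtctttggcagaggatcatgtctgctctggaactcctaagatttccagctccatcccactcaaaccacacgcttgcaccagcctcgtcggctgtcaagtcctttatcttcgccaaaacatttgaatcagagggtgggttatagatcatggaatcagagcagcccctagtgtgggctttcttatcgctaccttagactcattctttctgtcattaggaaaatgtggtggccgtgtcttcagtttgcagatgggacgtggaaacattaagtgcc
Stx1a (chr5:135023232-135023531, + strand): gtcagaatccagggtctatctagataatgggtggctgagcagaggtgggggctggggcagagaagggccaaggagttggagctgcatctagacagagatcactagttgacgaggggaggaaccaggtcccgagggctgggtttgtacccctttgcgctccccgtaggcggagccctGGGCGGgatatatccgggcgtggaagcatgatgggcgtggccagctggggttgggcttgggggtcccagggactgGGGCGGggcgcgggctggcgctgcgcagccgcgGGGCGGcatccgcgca
The promoter of Syt2 held 4 GC boxes and that of Stx1a 3, with G or C at 74.3% and 66.3% of bases against a median of 52.7% over 32851 promoters. The promoter of Sv2b held 1 GC box and, on the strand opposite to the gene, 1 match to the TATA box. The window printed for Rph3a held neither, while a GC box was present at another of its 3 listed starts. A GC box was present at 1 or more listed starts of 20 of the 24 members in the promoter table (83.3%), and of 38.2% of 27025 genes. The TATA box was found for 2 of these 24 members (8.33%, against 15.7% of genes). The motifs TGACGTCA, the cAMP response element, and CAGCACC, the left core of the RE1 element, were found for 1 (Syn1) and 4 members (Rph3a, Syn1, Sv2c and Unc13a), against 2.03% and 8.14% of genes. A match shows the letters only, and not that a factor bound there.

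Levels within the machinery were compared per length, as CPM divided by the kilobases of exon (RPKM), and their means in NSM spanned a range of 198 times between the highest and the lowest gene. In NSM the complexin Cplx2 stood at 290 ± 6.27 RPKM (SD, n = 3), with 296 RPKM as its highest library and 284 RPKM as its lowest. The vesicle SNARE Vamp2 (188 ± 13.8 RPKM) and the membrane SNARE Snap25 (175 ± 9.16 RPKM) followed, and their libraries overlapped (175 to 203 and 165 to 182 RPKM). At the other end were the Munc13 paralog Unc13b (1.46 ± 0.145 RPKM, libraries 1.36 to 1.63), the synapsin Syn3 (1.82 ± 0.0115 RPKM, libraries 1.82 to 1.84) and the calcium sensor Syt2 (3.97 ± 0.225 RPKM, libraries 3.75 to 4.20). These 3 genes did not overlap one another in NSM. Over all 12 libraries, the levels per length ranked between the 33.5th percentile of tested genes for Unc13b and the 99.7th for Cplx2.

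Within each family of paralogs, levels per length in NSM were unequal. Among the synaptotagmins, Syt11, which does not bind calcium, was at 155 ± 8.23 RPKM, and Syt1, the fast calcium sensor of forebrain neurons, was at 129 ± 5.47 RPKM. Syt5 was at 111 ± 3.58, Syt4 at 51.0 ± 2.64, Syt7, a slow sensor linked to asynchronous release, at 25.6 ± 0.726 and Syt2 at 3.97 RPKM. Of the synapsins, which tether vesicles in the reserve pool, Syn2 (76.3 ± 2.40 RPKM) and Syn1 (61.8 ± 0.859 RPKM) were far above Syn3. The SV2 glycoproteins fell in the order Sv2a (86.7 ± 6.27), Sv2b (37.2 ± 2.18) and Sv2c (29.1 ± 1.87 RPKM), with no overlap between them. Vamp2 was above Vamp1 (4.44 ± 0.125 RPKM), and Cplx2 above Cplx1 (160 ± 8.01 RPKM). Unc13a was at 40.4 ± 4.15 and Unc13c at 34.5 ± 1.91 RPKM, Rims2 at 18.3 ± 0.901 and Rims1 at 13.4 ± 0.171 RPKM, and Rab3a at 121 ± 3.39, Rab3c at 64.3 ± 2.21 and Rab3b at 12.0 ± 1.58 RPKM. The giant scaffolds of the active zone, Bassoon (Bsn, 14.7 ± 1.77 RPKM) and Piccolo (Pclo, 14.7 ± 0.0222 RPKM), had the same level within their spread.

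**Figure D1:**
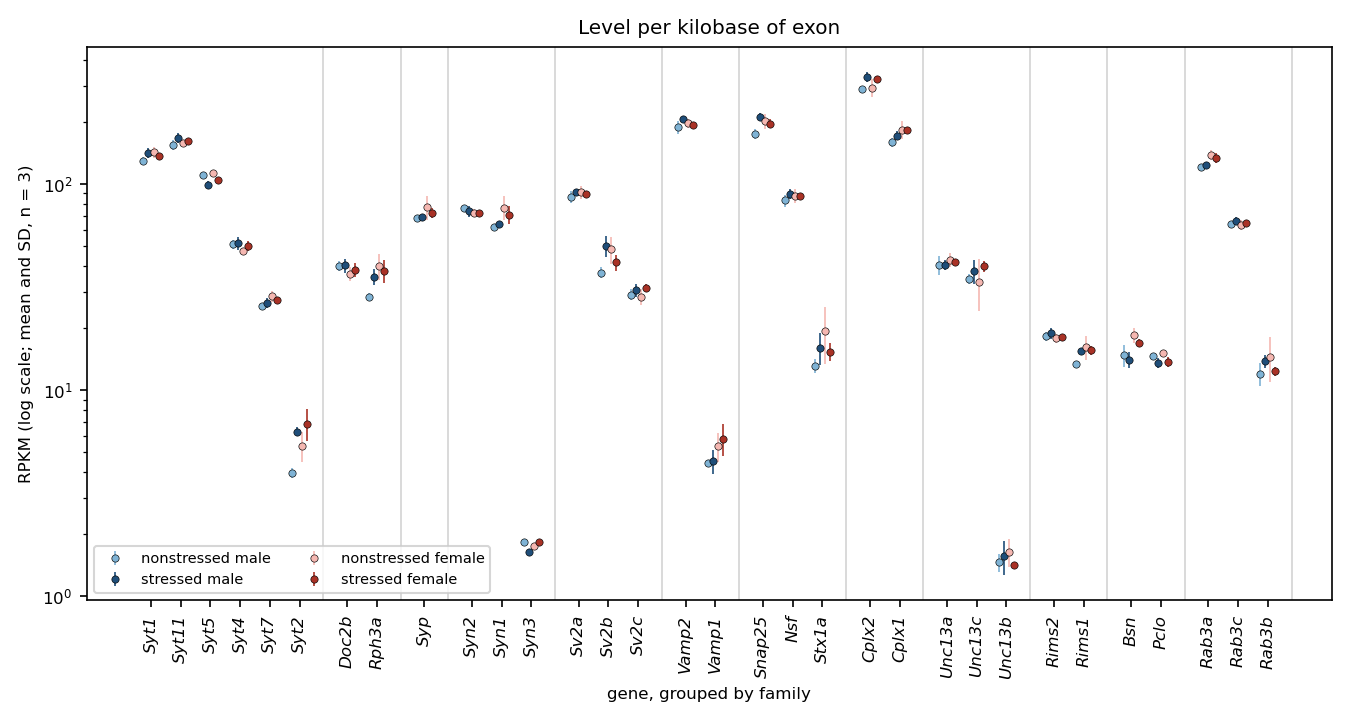
Level per kilobase of exon of each gene (RPKM, log axis), grouped by family, with the mean and SD of the 3 libraries in each of the 4 groups. Paralogs lie far apart, as Vamp2 at 188 and Vamp1 at 4.44 RPKM in nonstressed males, while the 4 groups of 1 gene lie close together.

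Differences between groups were small beside these differences between genes. A gene was called regulated where limma gave both an unadjusted p under 0.05 and a change of 1.3-fold or more. Adjusted p-values follow Benjamini and Hochberg across the 18593 genes tested. Fold changes are given as log2 of stressed against nonstressed or of female against male, with the standard error (SE) of the fit, and levels from here on are in CPM. Outside NSF, the spread between pools of a group was lower for these genes than over all tested genes. The median SD of their log2 levels was 0.0733 in NSM, 0.0784 in SM, 0.120 in NSF and 0.0628 in SF. Over all tested genes it was 0.106, 0.110, 0.0987 and 0.0939. Most members ranked above the median tested gene in level per length, and genes of like level were not compared. The NSF group was the one in which the members varied more than the median gene. Summed over the 32 members, levels were 10886 to 11384 CPM in NSM, 11730 to 12437 CPM in SM, 11654 to 12425 CPM in NSF and 11769 to 12278 CPM in SF, so that all 3 NSM libraries lay below the other 9.

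**Figure D2:**
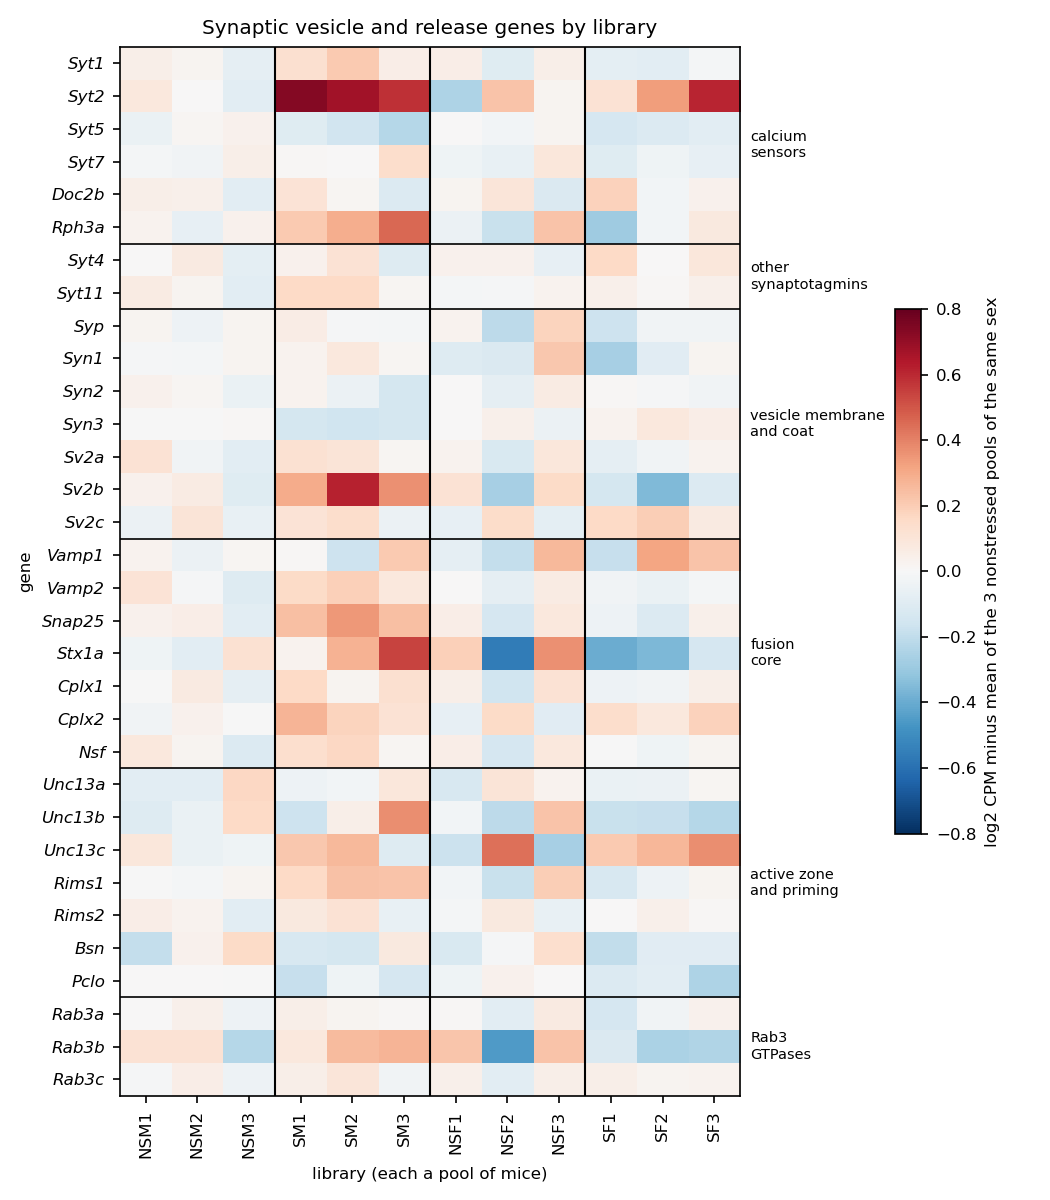
Deviation of each gene in each library from the mean of the 3 nonstressed libraries of the same sex (log2 CPM, colour scale; rows are genes grouped by role, columns are libraries). Syt2 is red in all 3 SM libraries, and the NSF2 column departs from NSF1 and NSF3, with Stx1a low and Unc13c high.

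In stressed males 2 of the 32 genes were regulated, Syt2 and Sv2b, both higher, which is 6.25% of the genes against 6.44% of all tested genes (2.36% higher). The share lay near the background. Syt2 encodes the calcium sensor of fast synapses, best known from brainstem and from parvalbumin interneurons, and Sv2b a vesicle glycoprotein abundant in glutamatergic neurons of the forebrain. At an adjusted p under 0.05 with no fold threshold 3 genes passed, these 2 and Snap25, or 9.38% against 3.32% of all tested genes. Of the members 27 were higher and 5 lower in SM, with a median log2 fold change of 0.07 against -0.01 for all genes, of which 47.3% were higher. The direction depended in part on scaling, with 18 higher and 14 lower under scaling by total reads alone, and 23 and 9 after quantile normalization. The split was 17 and 15 with the cortical marker level in the model. In that fit 2 members were regulated, both higher, Syt2 (0.77) and Unc13c (0.49). Of the 18593 tested genes 409 were then regulated as higher and 931 as lower.

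Syt2 (ENSMUSG00000026452) lies on chromosome 1 of NCBIM37 from 136605877 to 136649726, on the + strand. Its levels were 28.9, 27.3 and 25.8 CPM in the NSM libraries and 45.3, 43.4 and 40.9 CPM in the SM libraries. Every SM library was above every NSM library. The log2 fold change was 0.66 (SE 0.12, adjusted p = 0.0157, limma). With the cortical marker level in the model it was 0.77 (SE 0.16, adjusted p = 0.0641, limma). That model does not separate stress from the cortical level in males. The list of 7 striatal interneuron genes summed to 305 to 329 CPM in NSM and 315 to 349 CPM in SM, with 4 genes higher and 3 lower. Of the 7, 1 was regulated, Pvalb, the marker of parvalbumin interneurons. It had 2.26, 2.46 and 1.54 CPM in NSM and 4.35, 3.08 and 4.52 CPM in SM (log2 fold change 0.93, SE 0.32, adjusted p = 0.128, limma). The others lay between -0.06 (Chat) and 0.11 (Npy). In NSF Pvalb was lowest in NSF2 (2.11 CPM), where Syt2 was highest (42.9 CPM). In SF both were lowest in SF1 (3.22 and 39.7 CPM). The part of the interneuron list in the result was not tested.

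Sv2b (ENSMUSG00000053025) lies on chromosome 7 from 82259783 to 82454148, on the - strand. It stood at 217, 222 and 198 CPM in NSM and at 260, 325 and 273 CPM in SM. The groups did not overlap, and SM2 was the highest library of the males. The log2 fold change was 0.43 (SE 0.11, adjusted p = 0.0490, limma), and without SM2 it was 0.34, below the fold threshold. With the cortical marker level in the model it was 0.19 (SE 0.12, adjusted p = 0.428, limma), past neither threshold. The cortical level did not overlap between NSM and SM, so that nothing on its part is drawn from this value.

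Snap25 (ENSMUSG00000027273), on chromosome 2 from 136539189 to 136608164, had 1218, 1236 and 1120 CPM in NSM and 1406, 1513 and 1404 CPM in SM. Again all SM libraries were above all NSM libraries, by a log2 fold change of 0.27 (SE 0.07, adjusted p = 0.0391, limma), and with the cortical marker level in the model by 0.16 (adjusted p = 0.308, limma). Over the fits that left out 1 of the 12 libraries each, the log2 fold change ranged from 0.62 to 0.71 for Syt2, from 0.34 to 0.49 for Sv2b and from 0.24 to 0.32 for Snap25. None of the 32 genes had an adjusted p under 0.05 without NSM3, without SM1 or without SM2, fits in which the share of all tested genes at that threshold was also lower (0.54%, 0.972% and 0.424%). Without NSM2 or without SF1 there was 1, Syt2, with 0.884% and 2.77% of all tested genes.

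By role, all 7 genes of the fusion core were higher in SM (median log2 fold change 0.14), and 3 of them had an unadjusted p under 0.05. These were Snap25, Vamp2 (717 and 789 CPM, log2 fold change 0.14) and Cplx2 (1428 and 1627 CPM, 0.19). With the cortical marker level in the model Stx1a (-0.34), Vamp1 (-0.23) and Cplx1 (-0.0032) were lower in SM, and the other fusion core genes higher. Of the 6 calcium sensors 5 were higher. Syt1 (1078 and 1180 CPM) and Rph3a, which encodes the Rab3 effector rabphilin (117 and 147 CPM, log2 fold change 0.32, SE 0.10, adjusted p = 0.105, limma), were below the fold threshold, and Syt5 was lower in SM (193 and 173 CPM, log2 fold change -0.16). Of the 7 vesicle membrane and coat genes 5 were higher and 2 lower, one of them Syn3 (22.4 and 20.2 CPM, -0.15). Of the 7 active zone genes Rims1 (97.0 and 112 CPM, 0.21) was higher and Pclo (301 and 278 CPM, -0.12) lower at an unadjusted p under 0.05, and of the 3 Rab3 genes none reached it. In all, 11 of the 32 had an unadjusted p under 0.05 (34.4%, against 21.5% of all tested genes), and 10 did not overlap between the groups, 7 above and 3 below, or 31.2% against 23% of all tested genes.

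**Figure D3:**
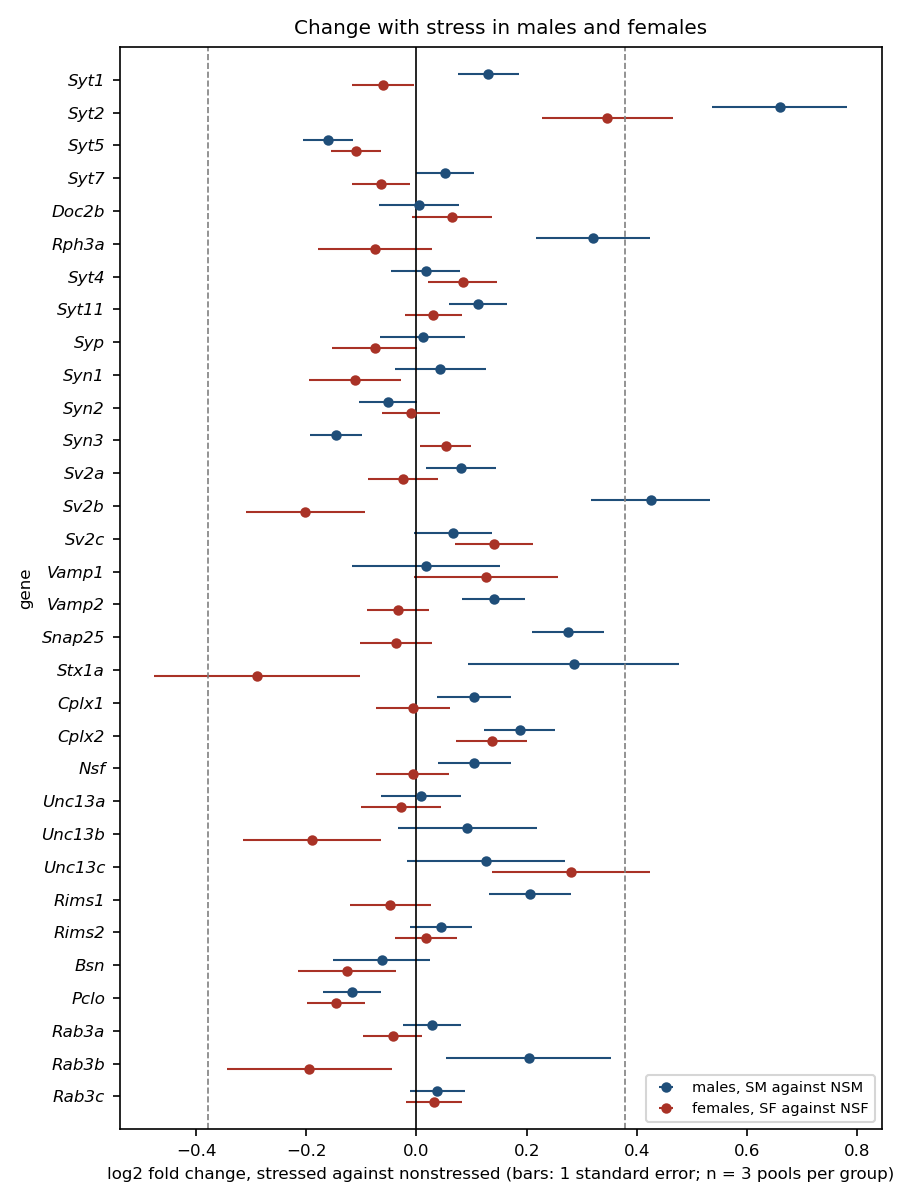
Log2 fold change of stressed against nonstressed pools for each gene, in males and in females, with bars of 1 standard error; dashed lines mark a fold of 1.3. In males Syt2 (0.66) and Sv2b (0.43) pass the line, and in females no gene does.

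In stressed females none of the 32 genes was regulated, against 1.73% of all tested genes. The count was 0 with limma, with edgeR and with DESeq2, and 3 genes had an unadjusted p under 0.05, which were Syt2, Pclo and Syt5 (9.38%, against 4.23% of all tested genes). The smallest adjusted p of all tested genes in this comparison was 0.948 (limma). Of the members 11 were higher and 21 lower in SF, with a median log2 fold change of -0.03, and 2 (Pclo and Syt5, both below) did not overlap between the groups, against 11.3% of all tested genes.

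Syt2 had 30.9, 42.9 and 37.2 CPM in NSF and 39.7, 46.3 and 56.0 CPM in SF. The groups overlapped, and the log2 fold change was 0.35 (SE 0.12, adjusted p = 0.948, limma). Pclo (ENSMUSG00000061601, chromosome 5 from 14514918 to 14863457) had 302, 318 and 311 CPM in NSF and 288, 292 and 262 CPM in SF. Every SF library was lower, by a log2 fold change of -0.15 (SE 0.05, adjusted p = 0.948, limma). In males its values were 301, 301 and 300 CPM in NSM and 265, 294 and 274 CPM in SM.

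The female comparison changed with single libraries of both groups. Without NSF2, whose cortical marker level was below that of NSF1 and NSF3, 4 members were regulated, Syt2 (log2 fold change 0.47), Unc13c (0.50), Stx1a (-0.58) and Rab3b (-0.43), while 3.47% of all tested genes were. Of these Unc13c had an adjusted p of 0.0420 (limma). Unc13c encodes a Munc13 paralog best known from cerebellum, and stood at 193, 295 and 181 CPM in NSF and at 251, 261 and 282 CPM in SF. NSF2 was higher than all SF libraries, whereas NSF1 and NSF3 were lower. Without NSF3, the library of highest cortical marker level, none was regulated (1.42% of all tested genes were), and the split turned to 19 members higher and 13 lower in SF, with a median log2 fold change of 0.01. Without NSF1 none was regulated (1.83% of all tested genes), with 13 higher and 19 lower. Without SF1 Syt2 was regulated (2.26% of all tested genes were), with 14 members higher and 18 lower. Without SF2 or without SF3 none was (1.64% and 1.47% of all tested genes).

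**Figure D4:**
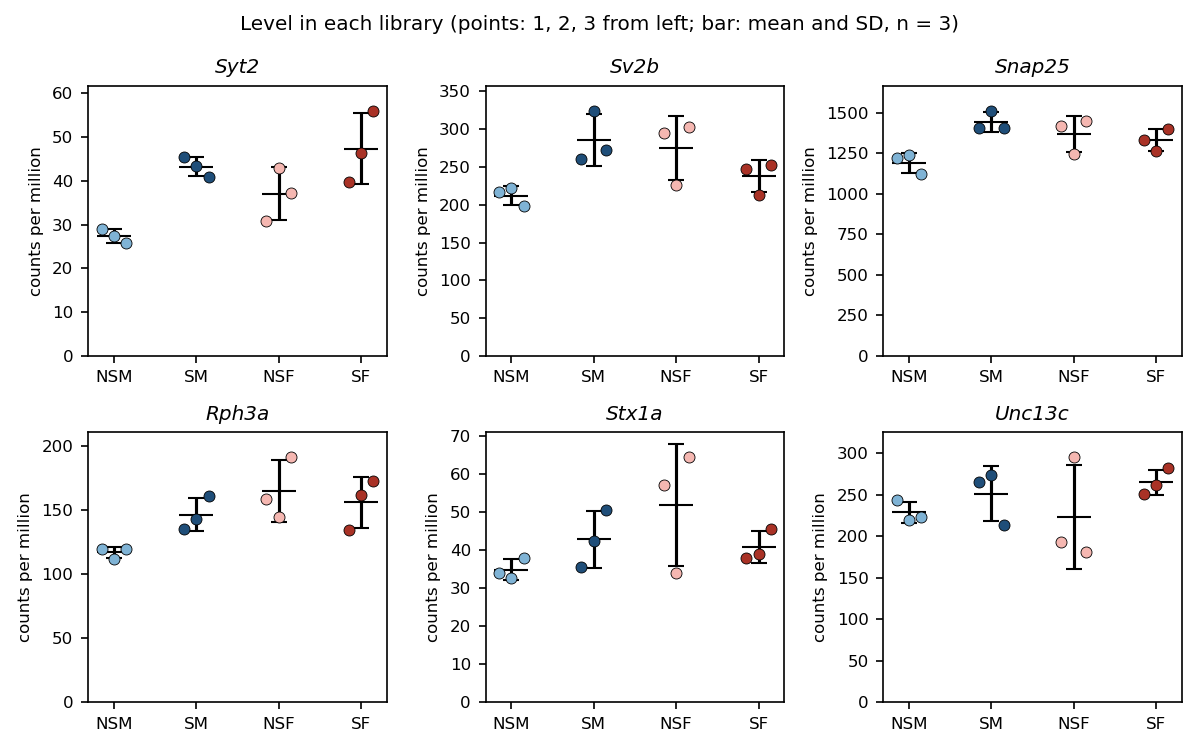
Level of 6 genes in each library (CPM, linear axis from 0), with the mean and SD of the 3 libraries of each group. Syt2, Sv2b and Snap25 in SM lie above NSM in all libraries, and Stx1a (57.1, 33.9 and 64.5 CPM) and Unc13c spread most within NSF among the 6 genes.

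The response to stress was compared between the sexes with the interaction term, in which a negative value means that the signed log2 change was lower in females than in males. It was past the thresholds for 2 of the 32 genes, Sv2b and Rph3a, both negative, or 6.25% against 4.42% of all tested genes (2.17% negative). No member had an adjusted p under 0.05 (5 or 0.0269% of all tested genes did), and 7 had an unadjusted p under 0.05 (21.9%, against 9.55% of all tested genes), with edgeR and DESeq2 giving 3 and 4 past both thresholds (4.60% and 3.33% of all tested genes). Sv2b, given above for males, stood at 296, 226 and 302 CPM in NSF and at 247, 213 and 253 CPM in SF. Its interaction was -0.63 (SE 0.15, adjusted p = 0.199, limma), from 0.43 in males and -0.20 in females, and with the cortical marker level in the model it was -0.29 (adjusted p = 0.883, limma).

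Rph3a (ENSMUSG00000029608, chromosome 5 from 121390511 to 121459527, - strand) had 120, 112 and 120 CPM in NSM, 136, 143 and 161 CPM in SM, 159, 145 and 192 CPM in NSF, and 134, 162 and 173 CPM in SF. Every SM library was above every NSM library, and the female groups overlapped. Its interaction was -0.40 (SE 0.15, adjusted p = 0.410, limma), from 0.32 in males and -0.08 in females, and -0.01 with the cortical marker level in the model. Of the other members Snap25 had the smallest p, with an interaction of -0.31 (SE 0.09, adjusted p = 0.292, limma) and female levels of 1416, 1242 and 1447 CPM in NSF and 1330, 1266 and 1402 CPM in SF. No member was past the thresholds with the cortical marker level in the model. In that model 378 of the 18593 tested genes were past them as positive and 237 as negative. Without NSF2 6 members were past them, Rph3a, Sv2b, Snap25, Stx1a, Unc13b and Rab3b. Of these Sv2b, Snap25, Stx1a and Rab3b had an adjusted p under 0.05. In that fit 5.91% of all tested genes were past the thresholds and 1.17% had an adjusted p under 0.05, so that both shares were above those with all libraries. Without NSF1 there were 3, Syt2, Rph3a and Sv2b (3.82% of all tested genes), and without NSF3 1, Sv2b (4%).

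Among nonstressed mice 3 of the 32 genes were regulated, Rph3a, Syt2 and Stx1a, all higher in females, or 9.38% against 5.31% of all tested genes (4.17% higher). None had an adjusted p under 0.05 (53 or 0.285% of all tested genes did), and 12 had an unadjusted p under 0.05, which is 37.5% against 15.4% of all tested genes. All 12 were higher in females, as were 10.2% of all tested genes at that p. Of the 32 genes 24 were higher and 8 lower in NSF, with a median log2 fold change of 0.12 against 0.0033 for all genes, and 13 did not overlap, 11 above and 2 below, against 19.5% of all tested genes. Besides the 3 regulated genes, the 12 held Syt1, Syt7, Syn1, Sv2b, Snap25, Cplx1, Rims1, Bsn and Rab3a, with log2 fold changes between 0.14 and 0.36. Syn1 and Syp are on the X chromosome (Syn1 0.31, Syp 0.16).

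Rph3a, with the library values given above, was higher in every NSF library than in every NSM library, by a log2 fold change of 0.48 (SE 0.10, adjusted p = 0.0791, limma). Syt2 was higher in NSF by 0.43 (SE 0.12, adjusted p = 0.133, limma), also with no overlap (30.9 CPM in its lowest NSF and 28.9 CPM in its highest NSM library). Bsn (ENSMUSG00000032589, chromosome 9 from 107998354 to 108092715, - strand) had 205, 240 and 261 CPM in NSM and 270, 291 and 322 CPM in NSF, a log2 fold change of 0.33 (SE 0.09, adjusted p = 0.124, limma). An annotated gene on the other strand covers 1813 bases of its 15937 bases of exon, and the strand setting of the counting is not given in the sources used here.

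Stx1a encodes the plasma membrane syntaxin (ENSMUSG00000007207, chromosome 5 from 135499352 to 135526970, + strand). It had 34.0, 32.8 and 37.9 CPM in NSM, 35.5, 42.3 and 50.6 CPM in SM, 57.1, 33.9 and 64.5 CPM in NSF, and 37.9, 39.0 and 45.5 CPM in SF. NSF1 and NSF3 were above all other libraries, and NSF2 was among the NSM libraries. The log2 fold change between the nonstressed sexes was 0.51 (SE 0.19, adjusted p = 0.219, limma), and it was 0.41 without NSF1, 0.32 without NSF3, both with an unadjusted p above 0.05 (0.0698 and 0.0950, limma), and 0.80 without NSF2 (adjusted p = 0.00409, limma). With the cortical marker level in the model it turned to -0.21.

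The count of members that differed between the nonstressed sexes changed with single libraries. Without NSM2 or without NSM3 4 were regulated (4.85% and 6.58% of all tested genes). Without NSF2, whose cortical level was the lowest of the females, 10 members had an adjusted p under 0.05 and were higher in females (Rph3a, Syp, Syn1, Sv2b, Snap25, Stx1a, Cplx1, Rims1, Rab3a and Rab3b), and 4 were regulated. Of all tested genes 2.54% had an adjusted p under 0.05 in that fit and 6.41% were regulated. Without NSF3, whose cortical level was the highest, 1 member was regulated (Syt2), against 3.77% of all tested genes, and the median log2 fold change was 0.06. Without NSF1, whose cortical level was the next highest, 3 were (Syt2, Rph3a and Bsn), against 5.31%, with a median of 0.11 and 25 members higher and 7 lower, close to the values with all libraries. With the cortical marker level in the model 1 was, Syt2, at 0.57 (SE 0.18, adjusted p = 0.960, limma), and Rph3a had 0.16 (SE 0.10, adjusted p = 0.968, limma). In that model 254 of the 18593 tested genes were regulated as higher and 211 as lower in NSF.

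Among stressed mice none of the 32 genes was regulated between the sexes, against 5.55% of all tested genes, with limma, edgeR and DESeq2 alike, and 5 had an unadjusted p under 0.05 (15.6%, against 16.4% of all tested genes). The members were split 16 higher and 16 lower in SF, with a median of -0.01, and 6 did not overlap, 3 above and 3 below, against 20.4% of all tested genes. Syn3 (ENSMUSG00000059602, chromosome 10 from 85517870 to 85961641) had 20.3, 20.1 and 20.3 CPM in SM and 22.0, 22.9 and 22.4 CPM in SF, a log2 fold change of 0.15 (SE 0.05, adjusted p = 0.140, limma), with NSM at 22.3, 22.3 and 22.6 and NSF at 21.7, 22.2 and 21.0 CPM. The SM libraries were the 3 lowest of the 12. Its exons share 1733 bases with Timp3 on the other strand, so that these counts could hold reads of Timp3. Bsn had 214, 212 and 247 CPM in SM and 256, 276 and 275 CPM in SF (log2 fold change 0.27, SE 0.09, adjusted p = 0.154, limma). The other 3 were Vamp1 (39.6 and 51.0 CPM, 0.36), Sv2b (286 and 238 CPM, -0.26) and Rab3a (275 and 299 CPM, 0.12). Vamp1, the VAMP of fast synapses, was past both thresholds without SM3 or without SF1 (6.98% and 7.88% of all tested genes). Without SF1 it also had an adjusted p under 0.05, as did 2.74% of all tested genes. With the cortical marker level in the model it was again past both thresholds (0.42, SE 0.12, adjusted p = 0.102, limma). In that model 951 of the 18593 tested genes were regulated as higher and 178 as lower in SF.

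Each member was then set against the cortical marker level itself, as a slope within groups on the mean log2 CPM of the 12 markers. Of the 32 genes 1, Stx1a, had a slope with an adjusted p under 0.05, which is 3.12% against 0.883% of all tested genes that are not markers. Stx1a gained 0.32 on the log2 scale per doubling of the cortical level (SE 0.02, adjusted p = 6.5e-06, limma). At an unadjusted p under 0.05 there were 14 members with Stx1a (43.8%, against 7.79% of all tested genes that are not markers). Beside Stx1a, slopes were positive for Rph3a (0.14), Rims1 (0.10), Unc13b (0.16), Rab3b (0.17), Syp (0.09), Sv2b (0.12), Syn1 (0.08) and Vamp1 (0.13). They were negative for Unc13c (-0.19), Sv2c (-0.09), Cplx2 (-0.08), Doc2b (-0.08) and Rims2 (-0.05). Paralogs of one family stood on opposite sides, Sv2b against Sv2c, Unc13b against Unc13c and Rims1 against Rims2, with values that were not compared by a test. The slope of Syt2 was -0.06 (SE 0.06). Of the 12 striatal projection neuron genes all had a negative slope (median -0.07), with none at an adjusted p under 0.05. Of the 10 general neuronal genes 7 had a positive slope, 2 of them at an adjusted p under 0.05. The share at an unadjusted p under 0.05 was 58.3% for the projection neuron genes and 20% for the general neuronal genes. It was 71.4% for the 7 striatal interneuron genes and 42.2% for the 45 other release genes described below. None of the astrocyte, oligodendrocyte, microglia or blood genes reached that p. A share like that of the members was therefore not particular to them.

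**Figure D5:**
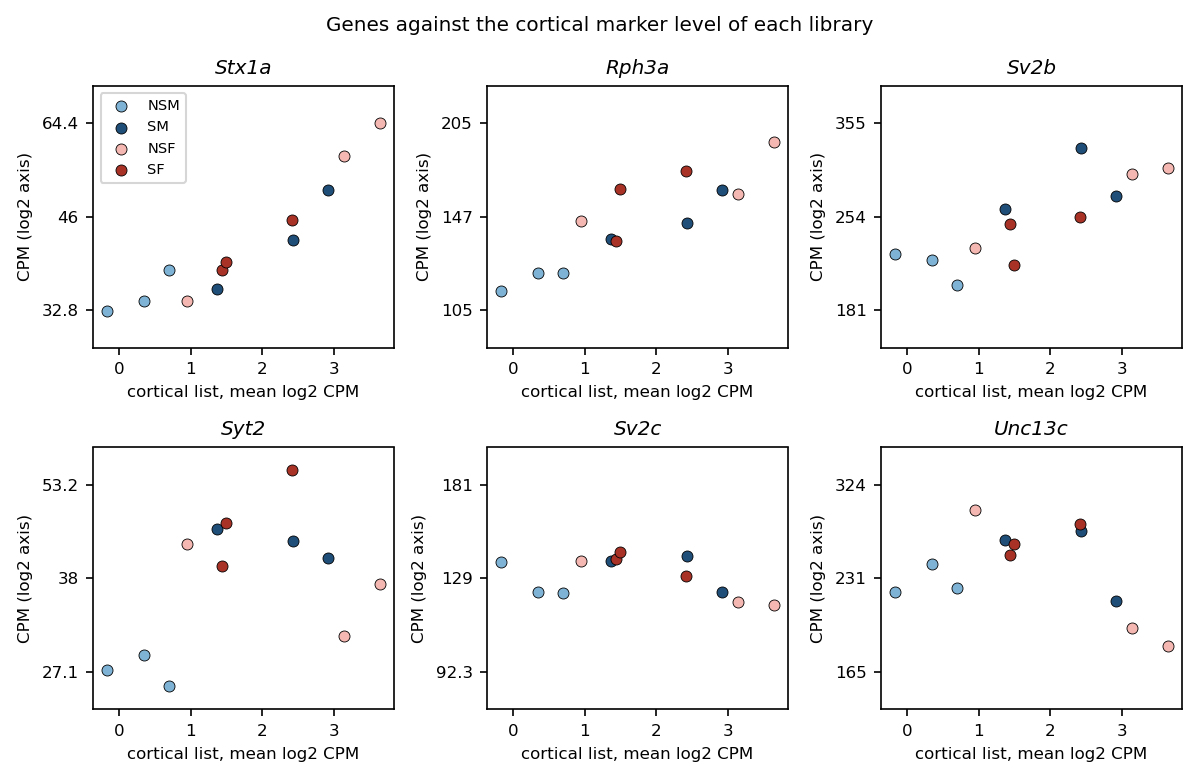
Level of 6 genes in each of the 12 libraries (CPM, log2 axis) against the mean log2 CPM of 12 cortical glutamatergic markers, coloured by group. Stx1a climbs with the cortical level from 32.8 to 64.5 CPM, Sv2c and Unc13c fall at the highest levels (NSF1 and NSF3), and Syt2 is lowest in the 3 NSM libraries.

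Other genes of vesicle release formed a list of 46, of which 45 were tested. In males 1 was regulated (2.22%), Cplx3, a complexin known from retina and deep cortical layers, at 1.31, 0.671 and 0.809 CPM in NSM and 2.49, 5.66 and 6.73 CPM in SM (log2 fold change 2.35, SE 0.89, adjusted p = 0.152, limma). In females none was regulated with limma, and 4 had an unadjusted p under 0.05. In the interaction 2 were past the thresholds, both negative, Cplx3 (-3.08) and Cadps2 (-0.85), the latter a priming factor of dense-core vesicles. Between nonstressed sexes 7 were regulated, all higher in NSF (15.6%, against 5.31% of all tested genes), with the smallest p for Lin7b (0.40), Cadps2 (0.84), Syt13 (0.56) and Doc2a (0.78). Cadps2 stood at 17.7, 13.8 and 17.2 CPM in NSM and at 32.3, 18.4 and 42.9 CPM in NSF, where NSF2 was the lowest of the 3, as for Stx1a. Between stressed sexes 2 were regulated, both higher in SF. Slc32a1, the vesicular GABA transporter of the projection neurons, was at 196, 172 and 191 CPM in SM and 238, 274 and 277 CPM in SF (0.50, SE 0.10, adjusted p = 0.0835, limma), and Slc17a6, the vesicular glutamate transporter of thalamic neurons, was at 2.57, 3.19 and 4.30 CPM in SM and 3.47, 6.77 and 9.35 CPM in SF (0.87, SE 0.38, adjusted p = 0.276, limma). No gene of this list had an adjusted p under 0.05 in any of the 5 comparisons.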

How the data were processed

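The authors pooled NAc punches before RNA extraction, sequenced polyA mRNA as paired reads, aligned them to NCBIM37 with TopHat2 and counted reads per Ensembl gene with HTSeq. The deposited values are raw counts per gene, without normalization. The small RNA counts of the same pools were not used here. Ensembl identifiers were looked up in a GENCODE annotation of NCBIM37 for symbols, coordinates and exon lengths.

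Genes above 5 reads in 80% or more of any group's libraries were kept, scaled by TMM (factors 0.967 to 1.04), and fitted with voom and limma 3.58.1 in R 4.3.3 with one mean per group (edgeR 4.0.16 for scaling). CPM are TMM-scaled and RPKM are CPM per kilobase of exon, as mean ± SD over 3 libraries. A single gene tested by exact permutation of 3 against 3 pools could not go below p = 0.10. Also tried were DESeq2 1.42.0, the quasi-likelihood test of edgeR, other scalings, filters and thresholds, a replicate block, the cortical marker level as a covariate, and each library left out. The script was tested on simulated data. Leaving out the 2 libraries of highest cortical level and the slopes on that level were added after seeing the data. Genes given with every library's value were those regulated in any comparison, the 2 of smallest p in each comparison, and for the levels the 3 highest and 3 lowest. Cadps2, Cplx3, Slc32a1, Slc17a6, Unc13c and the paralog values were added to these, and the members and gene lists were chosen with earlier results of these data known.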

Additional observations from a re-analysis of the deposited data

Results flagged for a closer look

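The change with stress differed between males and females for 2 of the 32 genes by the test of the interaction term, with a difference of 1.3-fold or more and an unadjusted p under 0.05. That is 6.25% of the genes, against 4.42% of all tested genes. For Sv2b the difference was -0.63 on the log2 scale (SE 0.15, adjusted p = 0.199, limma). All 3 SM libraries lay above the mean of the NSM libraries, and all 3 SF libraries below the mean of the NSF libraries. The female groups overlapped all the same, with NSF2 (226 CPM) below SF1 (247 CPM) and SF3 (253 CPM). For Rph3a the difference was -0.40 (SE 0.15, adjusted p = 0.410, limma), with all 3 SM libraries above the NSM mean and 1 of 3 SF libraries above the NSF mean. Neither difference passed the adjustment over all tested genes. With the cortical marker level in the model they were -0.29 and -0.01.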

How the results depend on the processing

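The 4 groups share replicate numbers, and the labels do not say whether these pair the samples. Deviations from the group means correlated between same-numbered NSM and SM libraries at 0.024, 0.00073 and 0.32. Between NSF and SF libraries they did so at 0.10, 0.076 and 0.11. Every NSF and SF library (6 of 6) correlated best with its own number in the other group. For NSM and NSF 4 of 6 libraries did, and for NSM and SM and for SM and SF 2 of 6. These counts are a hint from the data and not from the design. With the replicate block the regulated members were 2 in males, 0 in females, 3 in the interaction, 3 between nonstressed and 0 between stressed sexes, and the regulated genes among all tested were 1309, 362, 896, 1000 and 1125, against 1198, 322, 822, 988 and 1031 without it. At an adjusted p under 0.05 the block gave 4 members in males (Syt2, Sv2b, Snap25 and Rph3a), 4 between nonstressed sexes (Rph3a, Bsn, Syn1 and Rims1), 1 between stressed sexes (Bsn) and 0 in females and in the interaction, while the share of all tested genes at that threshold was 5.37% in males, 3.02% between nonstressed and 4.50% between stressed sexes, against 3.32%, 0.285% and 0.145% without it.

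Of the alternatives for counts, 218 stayed within 1.5 times the count reported and 53 did not, and for single genes 310 kept their direction and their side of the threshold, 23 lost it, 12 gained it and 2 turned direction. The 2 were Stx1a between nonstressed sexes, at -0.21 with the cortical marker level in the model and -0.052 without NSF1 and NSF3, where NSF2 is the only NSF library. Scaled by library size alone, 1 member was regulated in males and 1 in the interaction. Of the 18593 tested genes, 304 were then regulated as higher and 974 as lower in males. In the interaction 476 were positive and 310 negative. With no fold threshold, regulated members were 11 in males, 3 in females, 7 in the interaction, 12 between nonstressed and 5 between stressed sexes, and regulated genes among all tested were 3992, 786, 1775, 2859 and 3058. With an adjusted p under 0.05 and a fold of at least 1.3, members were 0 in the interaction and 0 between nonstressed sexes, and genes 256 in males, 0 in females, 5 in the interaction, 39 between nonstressed and 24 between stressed sexes. DESeq2 gave 6 members with an adjusted p under 0.05 in males. The share of all tested genes at that threshold with DESeq2 is not given here, so nothing is drawn from the 6. The smallest adjusted p of all tested genes in males was 3.07e-16 with DESeq2 and 0.00094 with limma. DESeq2 also gave 4 regulated members in the interaction (3.33% of all tested genes) and 194 regulated genes in females. With a filter of at least 1 read in any library, regulated genes were 865 in females, 1350 in the interaction, 1541 between nonstressed and 1603 between stressed sexes, and with at least 10 reads in every library 205 in females. With the cortical marker level in the model, 0 members had an adjusted p under 0.05 in males, 0 were regulated in the interaction, 1 between nonstressed and 1 between stressed sexes, and 465 genes were regulated between nonstressed sexes. Without NSF1 and NSF3, 1 member was regulated in the interaction and 1 between nonstressed sexes (3.28% and 3.95% of all tested genes). That fit leaves 1 NSF library, assumed to vary like the libraries of the other groups, so nothing is drawn from it. Over the fits that left out 1 library each, 1 to 2 members were regulated in males (831 to 1615 of all tested genes). In females 0 to 4 were (266 to 647), and in the interaction 1 to 6 (672 to 1103). Between nonstressed sexes 1 to 4 were (705 to 1231), and between stressed sexes 0 to 1 (752 to 1473). In males 0 to 3 members had an adjusted p under 0.05. The cause of these changes was not tested. With 3 pools per group and fold changes of the members mostly under 1.3, differences of this size were often within the spread of the pools.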
